A study of Rattus norvegicus with 54 samples.

Results

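The muscle miRNAs examined here are the rows of the deposited miRNA table named miR-1, miR-133a, miR-133b and miR-206, both arms included. The rule on names found 8 rows of the 832 in the table: miR-133a-3p, miR-133a-5p, miR-133b-3p, miR-133b-5p, miR-1-3p, miR-1-5p, miR-206-3p and miR-206-5p. The table writes each name with the rat prefix, as in rno-miR-133a-3p. In the 54 libraries 6 of the rows had reads, whereas miR-1-5p and miR-206-5p stood at 0 in all of them.

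Small RNA was sequenced (miR-seq) from kidney, liver, plasma and urine of male Sprague-Dawley rats, 9 weeks old by the labels, that received a single dose of a toxicant or of its vehicle. Cisplatin, which injures the kidney, was given intravenously at 5 mg/kg in saline (0.9%), and its samples were labelled day 4, 72 h after the dose. APAP (acetaminophen) was given orally at 1250 mg/kg in methylcellulose (0.5%) and CCl4 (carbon tetrachloride) orally at 1500 mg/kg in corn oil; both injure the liver, and their samples were labelled day 2, 24 h after the dose. The 18 groups held 3 libraries each: 6 kidney, 12 liver, 18 plasma and 18 urine libraries. Rats of all groups, vehicles included, were fasted overnight before death and were anaesthetised with an intramuscular injection of ketamine, xylazine and acepromazine before the terminal bleed. Plasma was taken into EDTA from the tail vein or the vena cava, and the sources do not say which vein gave which library. Muscle itself was not among the sample types.

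miR-1, miR-133 and miR-206 are known as the muscle miRNAs, or myomiRs. miR-1 and miR-133a are made from shared primary transcripts in skeletal and cardiac muscle, whereas miR-206 and miR-133b come from a locus used mainly in skeletal muscle. In cultured mouse myoblasts miR-1 and miR-206 favour differentiation and miR-133 favours proliferation, and damaged muscle releases all of them into blood, where they serve as markers of muscle injury.

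Mature sequences of 7 of the 8 rows were matched by name to RefSeq (rat build GRCr8). They are printed 5′ to 3′ with the seed, bases 2 to 8, in capitals, because the seed defines which members share targets and because 1 base separates some of the rows that were counted apart.
miR-133a-3p: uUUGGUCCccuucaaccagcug
miR-133b-3p: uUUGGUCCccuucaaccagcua
miR-1-3p: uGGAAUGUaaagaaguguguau
miR-206-3p: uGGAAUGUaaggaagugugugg
miR-1b: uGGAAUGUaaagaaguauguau
miR-133a-5p: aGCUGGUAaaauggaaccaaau
miR-133a-3p (Mir133a1, chr18:2157886-2157907, minus strand) and miR-133b-3p (Mir133b, chr9:30594629-30594650, plus strand) had the same seed, which no other miRNA of the table had, and they differed by 1 base, G22A, counted from 1 at the 5′ end with the miR-133a-3p base first. miR-1-3p (Mir1, chr18:2160339-2160360, minus strand) and miR-206-3p (Mir206, chr9:30590747-30590768, plus strand) had a second seed and differed at 3 positions, A11G, A21G and U22G. miR-1b, which the rule on names leaves out, carried the same seed as these and differed from miR-1-3p by G17A. Per the study's methods a read could have 2 mismatches, so a read of miR-133b-3p could not always be told from one of miR-133a-3p, nor one of miR-1b from one of miR-1-3p, and counts within these pairs are uncertain.

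The hairpin of Mir133a1 (chr18:2157872-2157958, minus strand) is shown because both of its arms were found in plasma. Its 5p and 3p mature arms are in capitals.
Mir133a1 hairpin: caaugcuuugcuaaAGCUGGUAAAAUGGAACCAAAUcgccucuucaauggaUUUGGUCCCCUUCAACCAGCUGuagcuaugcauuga
In GRCr8 the Mir1 and Mir133a1 hairpins lay on the same strand with 2368 bases between them, and Mir206 and Mir133b lay on the same strand with 3801 bases between them.

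Of the 14178 reads of the 8 rows in all libraries, 93.5% were miR-133a-3p, 4.49% miR-133b-3p and 1.51% miR-133a-5p. miR-1-3p had 43 reads and miR-206-3p 23 reads. miR-133b-5p had 1 read, in a urine library.

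The muscle miRNAs were found almost entirely in plasma. Plasma held 12851 of the 13260 miR-133a-3p reads (96.9%), although the plasma libraries together had fewer reads (8564498) than the kidney (12459946) or liver libraries (9585457). Over the pooled libraries of a sample type miR-133a-3p came to 1500.5 CPM (counts scaled to a common library total) in plasma, 22.1 in kidney and 13.8 in liver. In urine miR-133a-3p had 2 reads in 87823, so that its level there could not be measured at this depth.

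Depth varied widely between libraries. The reads assigned to miRNAs ranged from 21627 to 1290244 in plasma, from 372997 to 3591541 in kidney, from 273410 to 2213358 in liver and from 377 to 58151 in urine. The liver marker miR-122-5p was 1.74% to 2.40% of the reads in every liver library and at most 0.00039% in kidney libraries. In plasma it was at most 0.0059% in the vehicle and cisplatin libraries, 0.155% to 0.201% after APAP and 0.026% to 0.170% after CCl4, that is, the liver miRNA was higher in every library labelled with a hepatotoxicant than in all others.

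In vehicle rats, the plasma level of miR-133a-3p was higher than that of liver by 7.10 on the log2 scale (SE 0.86, 6 plasma and 6 liver libraries, adjusted p = 3.62e-06, edgeR quasi-likelihood test with Benjamini-Hochberg adjustment). miR-133b-3p was higher in plasma by 6.93 (SE 1.19, adjusted p = 0.000185, same edgeR test) and miR-133a-5p by 5.46 (SE 1.06, adjusted p = 0.000482, same edgeR test). The 3 members that passed the filter on low counts passed it through their plasma counts, as no member passed it in the liver comparisons. That all 3 were called higher could thus hardly come out otherwise, and the count of calls is not support. In the comparison 31.6% of the 282 miRNAs tested were called higher and 49.6% lower. With library totals in place of TMM scaling, 138 miRNAs were called higher and 80 lower in place of 89 and 140, the median of all miRNAs was 0.64 in place of -0.66, and all 3 members were still called higher. miR-133b-3p and miR-133a-5p had 2 reads and 1 read in the 6 liver libraries. Pooled over libraries, the share of reads was 198 times (95% exact interval 53.7 to 1650.2, counting error only) as high in plasma for miR-133b-3p, and for miR-133a-5p the interval of the ratio was 22.7 to 5360.5.

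The same 3 members were higher in plasma than in kidney of saline rats, among 278 miRNAs of which 39.2% were called higher. Here too miR-133b-3p and miR-133a-5p passed the filter through plasma, with 10 and 0 reads in the saline kidney libraries. The log2 difference was 5.92 for miR-133a-3p (SE 0.39, adjusted p = 1.27e-08, edgeR), 6.08 for miR-133b-3p (SE 0.58, adjusted p = 4.45e-07, edgeR) and 8.25 for miR-133a-5p (SE 0.84, adjusted p = 2.74e-06, edgeR). miR-133a-5p had 0 reads in the saline kidney libraries, so its fitted difference depends on the prior count of the fit. Against the floor of 3 counts over those libraries it was at least 87.0-fold higher in plasma. CPM is a share of the miRNA reads of a library, so these are differences in share, not in amount of RNA. For the low level in kidney and liver, fewer muscle cells in a tissue piece and less RNA per cell cannot be told apart.

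**Figure D1:**
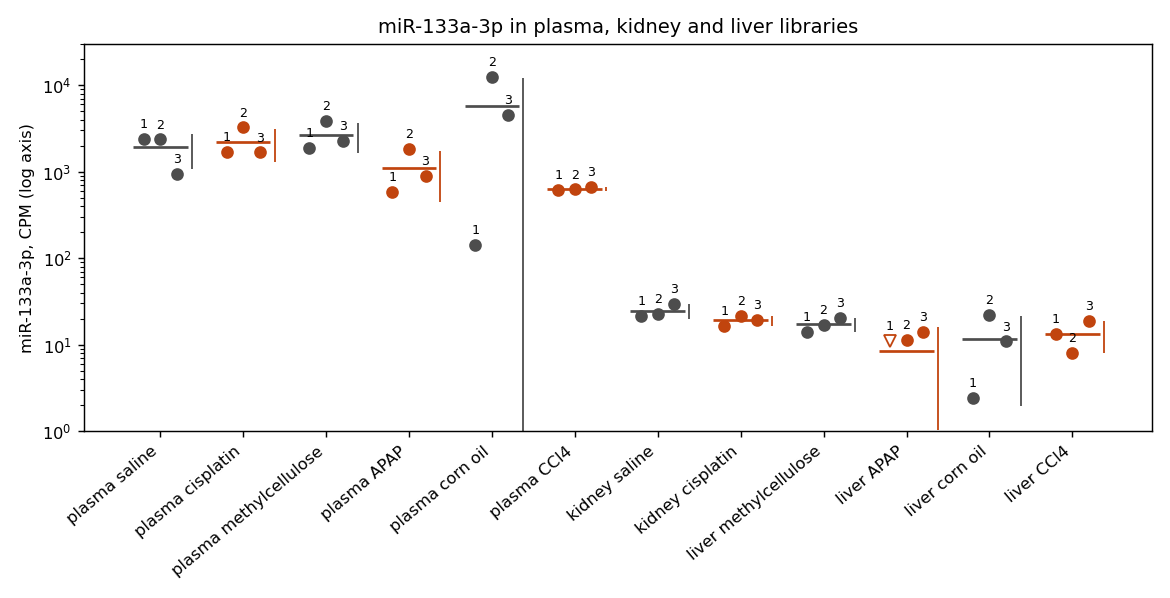
CPM of miR-133a-3p (log axis) in each plasma, kidney and liver library, numbered by replicate, with vehicle groups in grey and treated groups in orange; the horizontal line is the mean of 3 libraries, the vertical line beside it spans 1 SD to each side and is cut at the foot of the axis, and the open triangle marks the level of 3 reads in the liver APAP library with 0 reads. CPM is scaled by TMM within a sample type; all plasma libraries lie above 100, the kidney and liver libraries lie below 30, and corn oil library 1 lies apart from the other corn oil plasma libraries.

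In plasma of vehicle rats, the level of miR-133a-3p differed widely between libraries of 1 group, and it ranked from 17 (corn oil library 2) to 131 (corn oil library 1) among the miRNAs of a library. Levels of single libraries are given as CPM after TMM scaling among the plasma libraries. The saline libraries 1 to 3 had 2416, 2369 and 951 CPM, from 898, 823 and 692 reads. The methylcellulose libraries had 1893, 3832 and 2274 CPM, from 671, 1363 and 58 reads. The corn oil libraries had 143, 12613 and 4583 CPM, from 75, 910 and 582 reads. Saline and methylcellulose libraries thus lay within 2.54-fold and 2.02-fold of each other, whereas the corn oil libraries spanned 88.4-fold. On this scale library 1 lay far below and library 2 above all other plasma libraries. By library total APAP library 1 was lower than corn oil library 1, at 151 against 184 CPM.

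The means with their SD (n = 3 each) were 1912 ± 832 CPM for saline, 2666 ± 1027 for methylcellulose and 5780 ± 6321 for corn oil. Neighbours in this order did not differ beyond their spread. The 3 pairs of vehicle groups differed in miR-133a-3p by log2 values of 0.57 (methylcellulose minus saline, adjusted p = 0.993), 0.97 (corn oil minus methylcellulose, adjusted p = 0.998) and 1.54 (corn oil minus saline, adjusted p = 0.996, all edgeR). None of the 220 miRNAs tested was called between any 2 vehicle groups by edgeR (0%) or by DESeq2. At an unadjusted p under 0.05 edgeR gave 2, 7 and 0 miRNAs for corn oil against methylcellulose, corn oil against saline and methylcellulose against saline, and DESeq2 gave 3, 4 and 0.

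The spread among vehicle libraries of a group was large for miR-133a-3p and for miR-133b-3p, whose reads could not always be told apart. On the scale of log2(CPM + 1), the within-group SD of miR-133a-3p over the 9 vehicle plasma libraries was 2.03, the 25th largest of 231 miRNAs, for which the median SD was 0.80. That of miR-133b-3p was 1.88, in place 35. Without corn oil library 1 the values were 0.75 for both, near the median of 0.72, so the spread rested on that library. Over the 9 treated plasma libraries the SD of miR-133a-3p was 0.58, with a median of 0.58 over all miRNAs.

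In each of the 3 vehicle groups of plasma, the library with the most reads had the lowest miR-133a-3p level. These were saline library 3 (695631 reads in total), methylcellulose library 1 (312528) and corn oil library 1 (406613). Over the 9 vehicle plasma libraries the rank correlation of CPM with library total was -0.68, and over the 9 treated libraries it was -0.23; total and CPM share a term, and no test was made. The part of depth in the levels was not tested.

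CCl4 was compared with corn oil to see whether muscle miRNAs in plasma moved with liver injury. The CCl4 libraries had 612, 624 and 672 CPM of miR-133a-3p, a mean of 636 ± 31.8 CPM (SD, n = 3), from 765, 324 and 963 reads. They lay close together and between corn oil library 1 (143 CPM) and the other corn oil libraries (4583 and 12613 CPM), so the groups overlapped. The log2 difference of CCl4 from corn oil was -3.12 (SE 1.08, 95% interval -5.53 to -0.71), and it was not called (adjusted p = 0.308, edgeR). In this comparison 0% of 231 miRNAs were called lower and 0.433% higher; at an unadjusted p under 0.05 edgeR gave 20 miRNAs, and DESeq2 called 2 lower.

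miR-133b-3p gave the same arrangement of libraries. As its reads could not always be told from those of miR-133a-3p, this is not independent support. It had 39.2, 40.4 and 41.2 CPM after CCl4 (49, 21 and 59 reads), and 9.51, 582 and 268 CPM with corn oil (5, 42 and 34 reads). Its log2 difference was -2.72 (SE 1.01, 95% interval -4.96 to -0.47, adjusted p = 0.342, edgeR) and was not called. miR-133a-5p, the other arm of the Mir133a1 hairpin printed above, did not pass the filter on low counts here, with 15.2, 11.5 and 17.4 CPM after CCl4 (19, 6 and 25 reads) and 15.2, 166 and 39.4 CPM with corn oil (8, 12 and 5 reads).

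Whether the difference was called changed with the libraries, the tool and the filter. Without corn oil library 1, miR-133a-3p was lower after CCl4 by a log2 difference of -3.65 (adjusted p = 0.000898), miR-133b-3p by -3.30 (adjusted p = 0.00262) and miR-133a-5p by -2.61 (adjusted p = 0.0195, all edgeR), each called, among 14 calls in 246 miRNAs. miR-133a-5p had failed the filter with all 6 libraries and entered this fit through its counts in corn oil libraries 2 and 3. Its direction was thus largely set by the filter, and its call is not support. Without corn oil library 2, the highest, the log2 difference of miR-133a-3p was -2.02 (adjusted p = 0.63, edgeR). With all 6 libraries DESeq2 called miR-133a-3p lower (log2 difference -3.15, adjusted p = 0.0363) and gave miR-133b-3p an adjusted p of 0.0758. Without the filter on low counts edgeR called miR-133a-3p (log2 difference -2.79, adjusted p = 0.000476) and miR-133b-3p (-2.38, adjusted p = 0.0154), also with all 6 libraries. Over the 13 alternatives in which it was tested, the adjusted p of miR-133a-3p ran from 0.000476 to 0.924 and its log2 difference stayed below 0. Library totals moved the median of all miRNAs from 0.04 to -0.10.

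The raw reads of miR-133a-3p did not separate these groups, 75 to 910 with corn oil and 324 to 963 after CCl4, while the library totals did. They were 406613, 70736 and 96270 for corn oil libraries 1 to 3 and 1230227, 452187 and 1290244 for CCl4. The corn oil libraries of high miR-133a-3p level were those of low total. With all libraries thinned to equal depth the log2 difference of miR-133a-3p was -3.48 (adjusted p = 0.38, edgeR) and was not called. Thinning at random keeps the expected share of each miRNA in a library, so it cannot show what part depth had in these levels.

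Some lists of other miRNAs also differed between corn oil library 1 and libraries 2 and 3. The summed CPM of smooth muscle and mesenchyme miRNAs (10 rows) was 17243 in library 1 against 51340 and 38748. That of miRNAs of the imprinted Dlk1-Dio3 cluster (64 rows) was 126 against 1192 and 827, and that of liver miRNAs (15 rows) 2767 against 12114 and 13535. For the liver list library 1 lay near the methylcellulose (2922 to 6100) and saline libraries (3625 to 7481), and libraries 2 and 3 lay above both groups. Red blood cell miRNAs (12 rows) summed to 72491 against 84343 and 73000. The first of these lists ranged from 22689 to 31195 after CCl4, the second from 166 to 302, the third from 25149 to 85159 and the last from 63375 to 78977; their part in the result was not tested.

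**Figure D2:**
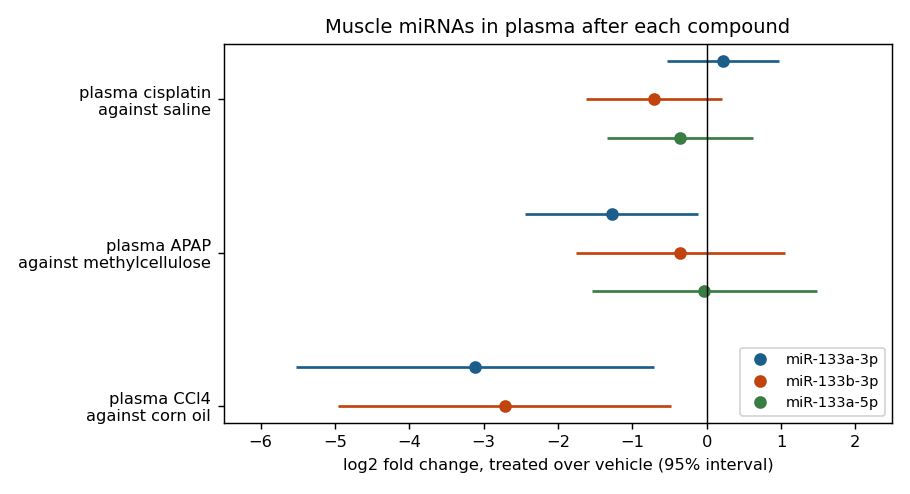
Log2 fold change of each tested member in plasma, treated over vehicle, with the 95% interval of the edgeR fit (unadjusted); miR-133a-5p was not tested after CCl4. The intervals of miR-133a-3p after APAP and of both miR-133 genes after CCl4 lie below 0, and no member had an adjusted p under 0.05.

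After APAP miR-133a-3p lay below its vehicle in every plasma library, but not past the threshold. The APAP libraries had 583, 1824 and 888 CPM (74, 1036 and 272 reads), a mean of 1099 ± 647 (SD, n = 3), and the methylcellulose libraries the 1893, 3832 and 2274 CPM given above. The groups did not overlap, as was the case for 16.7% of the 227 miRNAs tested in this direction. The log2 difference was -1.28 (SE 0.53, 95% interval -2.44 to -0.12, adjusted p = 0.0957, edgeR), in a comparison in which 26.9% of miRNAs were called, 49 higher (21.6%) and 12 lower (5.29%). At an unadjusted p under 0.05 edgeR gave 92 miRNAs, miR-133a-3p among them, and DESeq2 called no member.

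The call depended on the libraries and on the scaling. Leaving out methylcellulose library 1 gave -1.71 (adjusted p = 0.0143), methylcellulose library 3 gave -1.58 (adjusted p = 0.016) and APAP library 2 gave -1.91 (adjusted p = 0.0212), each called by edgeR. With library totals alone it was -2.20 (adjusted p = 0.0282, edgeR), but then the median of all miRNAs was -0.92 in place of 0.21, and 26 miRNAs were called higher and 49 lower. Over all 14 alternatives its adjusted p ran from 0.0143 to 0.265. APAP library 1 had a TMM factor of 0.26, so its level was 583 CPM after scaling and 151 CPM by its total. In APAP plasma miR-22-3p, which made up 20.7% to 24.6% of liver reads and 8.19% to 10.8% of kidney reads, took 23.6% to 37.4% of the reads, against 6.73% to 7.24% with methylcellulose. Its part in the level of miR-133a-3p was not tested.

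For the other miR-133 rows the APAP and methylcellulose libraries overlapped. miR-133b-3p had 15.8, 102 and 32.6 CPM after APAP (2, 58 and 10 reads) against 76.2, 78.7 and 39.2 CPM (27, 28 and 1 reads), and the groups overlapped (log2 difference -0.35, SE 0.64, adjusted p = 0.719, edgeR). miR-133a-5p had 23.7, 40.5 and 22.9 CPM (3, 23 and 7 reads) against 16.9, 36.5 and 78.4 (6, 13 and 2 reads), with a log2 difference of -0.03 (SE 0.69, adjusted p = 0.982, edgeR) that turned positive with RLE factors.

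Cisplatin was compared with saline 72 h after the dose. miR-133a-3p had 1694, 3259 and 1676 CPM after cisplatin (600, 1578 and 1167 reads), a mean of 2210 ± 909 (SD, n = 3), against 2416, 2369 and 951 CPM with saline. The groups overlapped, and the log2 difference of 0.22 (SE 0.36, 95% interval -0.53 to 0.97, adjusted p = 0.925, edgeR) turned negative with library totals alone (-0.0059, where the median of all miRNAs moved from -0.03 to -0.22) and without saline library 3 (-0.10) or cisplatin library 2 (-0.18). None of the 3 members tested was called, in a comparison in which 4.05% of 222 miRNAs were called, 1.8% higher and 2.25% lower. At an unadjusted p under 0.05, edgeR gave 34 of the 222 miRNAs, none of them a member, and DESeq2 called no member.

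miR-133b-3p had 98.8, 92.9 and 47.4 CPM after cisplatin (35, 45 and 33 reads) and 145, 190 and 57.7 CPM with saline (54, 66 and 42 reads), a log2 difference of -0.71 (SE 0.43, 95% interval -1.62 to 0.21, adjusted p = 0.55, edgeR). miR-133a-5p had 22.6, 26.9 and 25.8 CPM (8, 13 and 18 reads) against 48.4, 40.3 and 16.5 (18, 14 and 12 reads), a log2 difference of -0.36 (SE 0.46, adjusted p = 0.925, edgeR).

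**Figure D3:**
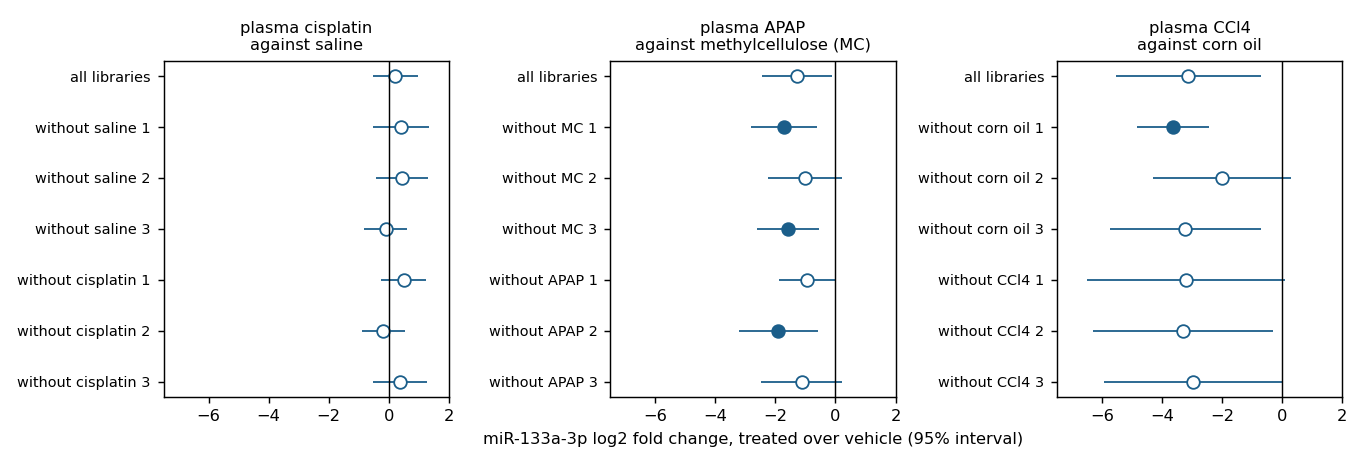
Log2 fold change of miR-133a-3p in plasma with all 6 libraries and with each library left out in turn, with 95% intervals; filled points have an adjusted p under 0.05 (edgeR). After CCl4 only the fit without corn oil library 1 is filled, after APAP 3 of the 6 fits that leave out a library are filled, and after cisplatin the points lie on both sides of 0.

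The responses to the 3 compounds were compared directly, as interaction contrasts over all 18 plasma libraries. For miR-133a-3p the log2 response to CCl4 minus that to cisplatin was -3.39 (SE 1.14, adjusted p = 0.223, edgeR), and minus that to APAP it was -1.90 (SE 1.13, adjusted p = 0.393, edgeR). The response to APAP minus that to cisplatin was -1.49 (SE 1.12, adjusted p = 0.428, edgeR). No member was called in any of the 3 contrasts, in which 0.763%, 3.05% and 26.3% of 262 miRNAs were called, the last as 19.5% higher and 6.87% lower; the contrasts share their libraries and each compares different vehicles, and cisplatin also a different time. Without corn oil library 1, miR-133a-3p was called for CCl4 against cisplatin (-3.95, adjusted p = 0.00435) and for CCl4 against APAP (-2.49, adjusted p = 0.039), and miR-133b-3p for CCl4 against APAP (95% interval -4.74 to -1.26, adjusted p = 0.0335, all edgeR).

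miR-1-3p and miR-206-3p, the members with the GGAAUGU seed, were near the limit of detection in plasma. miR-1-3p had 42 plasma reads in 14 of 18 libraries, with at most 8 reads in a library (cisplatin library 2) and 0 reads in 4 libraries. Pooled over plasma there were 306 reads of miR-133a-3p for each read of miR-1-3p (95% interval 226 to 425, exact binomial, counting error only). Its near-copy miR-1b had 46 plasma reads, so that there were 146 reads of miR-133a-3p for each read of either (95% interval 118 to 182). miR-1-3p and miR-133a-3p, whose hairpins neighbour each other as given above, were thus counted at very unequal levels.

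By group, the 3 libraries had 0, 7 and 0 reads of miR-1-3p with methylcellulose and 0, 5 and 1 after APAP. They had 1, 1 and 2 reads with corn oil and 2, 1 and 3 after CCl4, and 1, 2 and 5 with saline and 0, 8 and 3 after cisplatin. Where a plasma library had 0 reads, the limit of 3 counts stood at 6.13 to 139 CPM by library total. miR-206-3p had 21 plasma reads in 10 of 18 libraries, with 6 in the saline and 9 in the cisplatin libraries, and 2, 1, 1 and 2 in the methylcellulose, APAP, corn oil and CCl4 groups. Neither passed the filter in a comparison of treated with vehicle rats, and differences between groups were not detectable at this depth.

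In kidney, miR-133a-3p was low in every library. Saline libraries had 21.5, 22.5 and 29.9 CPM (75, 81 and 18 reads) and cisplatin libraries 16.5, 21.5 and 19.2 CPM (6, 70 and 25 reads). The groups overlapped narrowly. Libraries of equal number in these groups come from different rats, as no rat received both treatments, and the labels state no link between them. The log2 difference of -0.27 (SE 0.25, 95% interval -0.83 to 0.28, adjusted p = 0.863, edgeR) was not called, where 1.74% of 344 miRNAs were, 1.16% higher and 0.581% lower. At an unadjusted p under 0.05 it was not among the miRNAs either, and DESeq2 did not call it. With the replicate number as a block the log2 difference was -0.30 (adjusted p = 0.759, edgeR). miR-133b-3p had 0 to 6 reads and miR-206-3p 0 or 1 in a kidney library, and miR-1-3p had 0 reads in all 6.

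In liver no member passed the filter on low counts in either comparison. miR-133a-3p had 9, 10 and 13 reads with methylcellulose (14.2, 16.8 and 20.5 CPM) and 0, 5 and 8 after APAP. With corn oil it had 1, 9 and 7 reads (2.42, 22.0 and 10.9 CPM), and after CCl4 8, 19 and 43 reads (13.2, 8.01 and 19.0 CPM). The APAP libraries had 0, 11.4 and 14.0 CPM, and the highest of them (8 reads) nearly reached the lowest methylcellulose library (9 reads). The 95% exact Poisson intervals overlapped, so these groups are not read as separate. The CCl4 and corn oil libraries overlapped. Without the filter the log2 differences were -0.85 for APAP (adjusted p = 0.762) and 0.33 for CCl4 (adjusted p = 0.779, both edgeR). With the filter, 3.21% of 249 miRNAs were called after APAP (2.81% higher, 0.402% lower) and 2.76% of 254 after CCl4 (1.18% higher, 1.57% lower).

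The lowest liver libraries carried the same numbers as the lowest plasma libraries in 3 of the 4 treatments with both sample types. Number 1 was lowest in liver and plasma for APAP (0 reads in liver, 583 CPM in plasma), corn oil (1 read in liver, 143 CPM in plasma) and methylcellulose (9 reads in liver, 1893 CPM in plasma), but not for CCl4. The labels do not say that equal numbers mark the same rat, and the liver counts of 0 and 1 carry large counting error (for corn oil library 1, a 95% exact Poisson interval of 0.062 to 13.6 CPM by library total).

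In urine, miR-133a-3p had 1 read in corn oil library 2 and 1 in cisplatin library 2, and 0 reads in the other 16 libraries. At these totals a count of 0 allows up to 51.6 CPM in the deepest library (cisplatin library 1) and 7958 in the shallowest (APAP library 1). The single read of miR-133b-5p was in APAP library 1. No member passed the filter in urine, where 14% of 43 miRNAs were called after cisplatin (2.33% higher, 11.6% lower) and 0% of 20 after APAP and after CCl4. At an unadjusted p under 0.05 edgeR gave 3 and 2 miRNAs there, and DESeq2 called 0.

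Within plasma, the split of reads between miR-133a-3p and miR-133b-3p, which differ only in the last base printed above, varied with a tag in the table's column names. The names carry L1, L2 or L8 for plasma; the sources do not state what the tag stands for. In the 10 libraries tagged L1 (saline, corn oil, CCl4 and cisplatin library 1), miR-133b-3p was 4.41% to 7.42% of the reads of both, 5.78% in the pooled reads (95% exact interval 5.25% to 6.35%). In the 2 libraries tagged L2, cisplatin libraries 2 and 3, it was 2.77% and 2.75%, and in the 6 tagged L8 (methylcellulose and APAP) it was 1.69% to 5.30%, 3.50% pooled (95% exact interval 2.92% to 4.15%).

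The cisplatin group was the only plasma group with more than 1 tag. Its library 1, tagged L1, had 5.51% miR-133b-3p (35 reads beside 600 of miR-133a-3p, 95% exact interval 3.87% to 7.58%), above libraries 2 and 3 (95% exact intervals 2.03% to 3.69% and 1.90% to 3.84%). Kidney and liver libraries, with other tags, had 5.82% and 6.38% in pooled reads. With the tag as a term in the cisplatin fit, a setting chosen after seeing the data, the log2 difference of miR-133a-3p was -0.24 (adjusted p = 0.864, edgeR) in place of 0.22. The summed level of the nervous system miRNAs (28 rows, with miR-128-3p in more than 1 row) also differed within this group. It was 7328 CPM in library 1 and 24192 and 23994 CPM in libraries 2 and 3, against 5241 to 9302 CPM with saline. Only 4 of these rows were tested after cisplatin. As library 1 alone carried L1 in this group, the tag cannot be told apart from that library here. The other plasma groups had 1 tag each: L8 held methylcellulose and APAP alone, so that tag cannot be told apart from that pair, and L1 held corn oil, CCl4 and saline, so that CCl4 and its vehicle shared a tag.

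**Figure D4:**
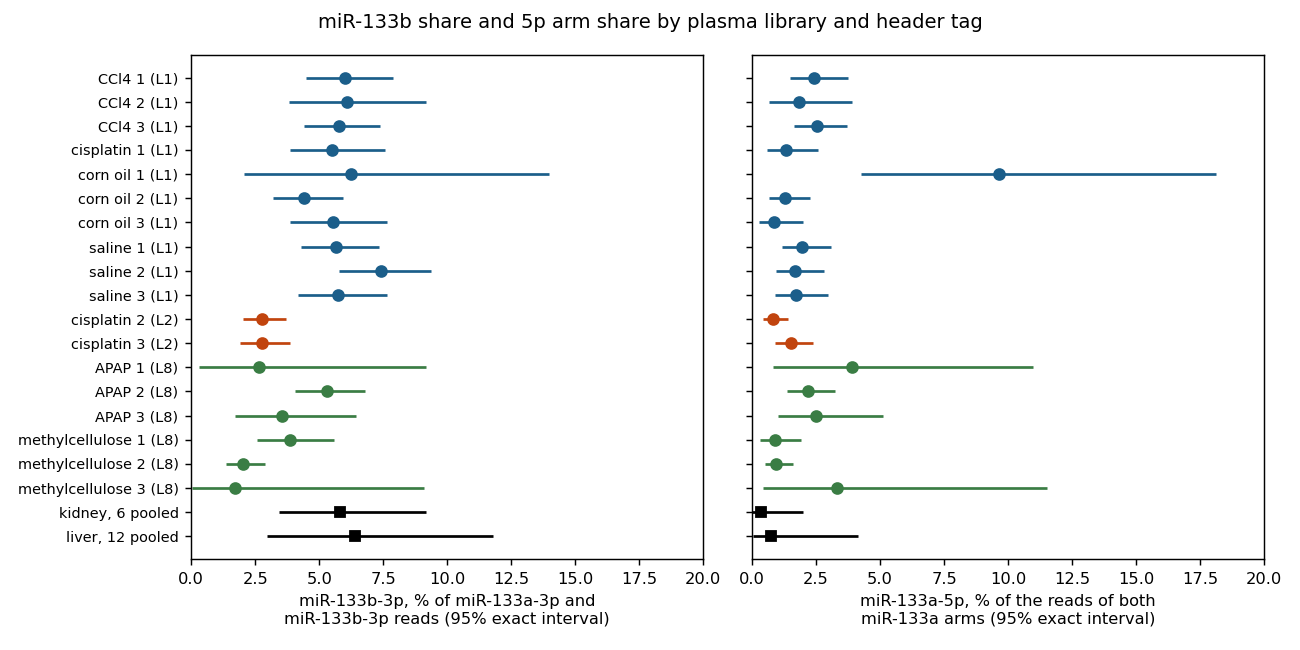
Left, the share of miR-133b-3p in the reads of miR-133a-3p and miR-133b-3p; right, the share of miR-133a-5p in the reads of both miR-133a arms; each as percent with 95% exact binomial intervals (counting error only), for 18 plasma libraries coloured by the tag of the column name and for pooled kidney and liver libraries (squares). On the left the L1 libraries lie from 4.41% to 7.42% and the L2 libraries below 2.8%; on the right corn oil library 1 lies at 9.64%, above the 17 others.

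The 5p arm of Mir133a1 was the minor arm throughout. miR-133a-5p made up 0.82% to 3.90% of the reads of both arms in 17 plasma libraries, 1.57% of the pooled reads (95% exact interval 1.36% to 1.80%). In corn oil library 1 it was 9.64%, 8 of 83 reads (95% exact interval 4.25% to 18.1%). Its interval overlapped those of APAP library 1 (0.81% to 10.97%), methylcellulose library 3 (0.41% to 11.5%) and APAP library 3 (1.01% to 5.10%). Corn oil library 1 also had the lowest miR-133a-3p level after TMM scaling, and miR-133a-3p makes up most of the denominator of the share.

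Other plasma miRNAs followed miR-133a-3p from library to library. Pearson's r of log2(CPM + 1) over the 18 plasma libraries was 0.90 for miR-133b-3p and 0.78 for miR-133a-5p. The first value is not independent support, as reads of miR-133b-3p could not always be told from those of miR-133a-3p. Outside the members, the miRNAs of highest r among those that passed the filter were miR-127-3p (0.88), miR-676 (0.78), miR-149-5p (0.75), miR-10a-5p (0.71), miR-125a-5p (0.69), miR-351-5p (0.69), miR-10b-5p (0.67), miR-341 (0.63), miR-434-3p (0.61) and miR-423-5p (0.59). miR-127-3p and miR-434-3p lie in the imprinted Dlk1-Dio3 cluster, which holds many miRNA genes. Spearman's rho was 0.81 for miR-127-3p and 0.85 for miR-133b-3p.

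These likenesses rested in part on the corn oil group. Without corn oil libraries 1 and 2, the libraries farthest from the median of miR-133a-3p, r over 16 libraries was 0.78 for miR-133b-3p, 0.76 for miR-127-3p and 0.76 for miR-149-5p, but 0.47 for miR-10a-5p and 0.43 for miR-10b-5p. The libraries share depth, scaling and group differences, and r is given as a description.

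Further miRNAs of muscle and of other cell types were read beside the members. Of the list of other muscle miRNAs, miR-208b-3p, a miRNA hosted by a slow and cardiac myosin gene, had 46 plasma reads in 9 libraries, miR-499-5p, from a related myosin gene, had 55 in 13 and miR-208a-3p had 0. miR-499-5p was not found chiefly in plasma, with 1445 reads in kidney and 143 in liver. miR-133c had 0 reads in every library. Only the arms of miR-378a, which many tissues express, were abundant enough to be tested among the 10 rows of the list. Both were called higher after APAP (list median 3.70 on the log2 scale, 0.21 for all miRNAs tested), neither was called after CCl4 (median 0.93, 0.04 for all), and 1 row was tested and not called after cisplatin (median -0.41, -0.03 for all). Of all miRNAs tested after APAP, 49 of 227 were called higher. The study listed miR-378a and also miR-499, which was not tested here, as elevated in APAP plasma. After CCl4 miR-378a-5p had a log2 difference of 1.40 (adjusted p = 0.671) and miR-378a-3p of 0.47 (adjusted p = 0.876, both edgeR).

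After APAP 10 of 11 tested rows of the liver list were called higher (median 6.62 on the log2 scale) and after CCl4 only miR-122-5p of 8 (median 2.63), while after cisplatin none of 3 was called (median 0.02). Over all miRNAs tested, 49 of 227 were called higher after APAP and 1 of 231 after CCl4. The study itself listed every name of this list as elevated in plasma after both hepatotoxicants, so the counts are not support. After CCl4 the smallest p belonged to miR-122-5p, the main liver miRNA (log2 difference 5.96, adjusted p = 0.0141), and miR-122-3p (4.85, adjusted p = 0.0721, both edgeR). By library, the liver list summed to 2767 to 13535 CPM with corn oil, 25149 to 85159 after CCl4, 2922 to 6100 with methylcellulose and 226456 to 1112460 after APAP, where the TMM factor of 0.26 of library 1 multiplies its levels. The part of these added liver reads in the levels of the muscle miRNAs was not tested.

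Among the lists of other cell types, no tested row was called after CCl4 in the 7 of red blood cells (median -0.03 on the log2 scale), 9 of white blood cells and platelets (median -0.31), 5 of smooth muscle and mesenchyme (median -0.53), 4 of the nervous system (median -0.18), 2 of skin and squamous epithelium (median -1.92) and 3 of the Dlk1-Dio3 cluster (median -1.30). The smallest p of each list belonged to miR-16-5p, a red blood cell miRNA (0.51), miR-155-5p of activated leukocytes (1.31), miR-10b-5p (-1.26), miR-128-3p (-0.28 for its second row), miR-205 of squamous epithelium (-3.04) and miR-127-3p (-1.83), given as log2 differences with adjusted p from 0.352 to 0.901 (edgeR). The next smallest were miR-92a-3p (-0.35 for its second row), miR-142-5p (-0.41), miR-199a-5p (-1.10), miR-128-3p (-0.26), miR-203a-3p (-0.79) and miR-434-3p (-1.30), with adjusted p from 0.569 to 0.934 (edgeR). The medians of all 6 lists lay below 0, beside a median of 0.04 over all 231 miRNAs. The summed skin list was 866 CPM in corn oil library 3, against 69.3 and 72.3 CPM in the other corn oil libraries.

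After APAP 1 of 8 tested rows of white blood cells and platelets and 2 of 4 of the nervous system were called lower, where 5.29% of all miRNAs were, and no row of the red blood cell (0 of 7), smooth muscle and mesenchyme (0 of 5), skin (0 of 1) or Dlk1-Dio3 lists (0 of 5) was called. After cisplatin 3 of 7 red blood cell rows were called lower and 2 of 4 nervous system rows higher, where 2.25% of all miRNAs were called lower and 1.8% higher, and none of 8 white blood cell and platelet, 6 smooth muscle and mesenchyme, 1 skin and 5 Dlk1-Dio3 rows was called. Copies of a mature miRNA stood as separate rows in these lists, as for miR-128-3p (nervous system) and miR-92a-3p (red blood cells). A count can therefore hold 1 miRNA more than once. The part of these lists in the levels of the muscle miRNAs was not tested.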

How the data were processed

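The authors deposited 1 table of raw counts, whole numbers of reads per mature miRNA that were not normalized, with columns assigned to samples through the GEO labels. Per the study's methods, TruSeq small RNA libraries were sequenced at 36 bases, and the authors aligned the clipped reads with OSA v4 to Rnor 5.0 and miRBase v21 with 2 mismatches allowed, leaving out reads with more than 10 genomic locations. Reads of rows that differ by 1 base can therefore be split between them. The depth per library is given in the text; counts of 0 were read against a floor of 3 counts.

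Each comparison used its own libraries and the quasi-likelihood test of edgeR 4.0.16 (R 4.3.3), 2-sided, after TMM scaling and the low-count filter of filterByExpr, set to 10 per library and 15 in all. Adjustment was by Benjamini-Hochberg over all miRNAs of a comparison, with a threshold of 0.05. SE is the absolute log2 fold change divided by the square root of F, and intervals are not adjusted; where counting noise alone gives a larger p, edgeR reports that one. DESeq2 1.42.0, the authors' tool, RLE factors, library totals, no filter, equal depth, the replicate number as a block, summed near-identical rows and leaving out each library were alternatives. Levels are CPM with TMM factors within a sample type. Intervals of shares are exact binomial and, like Poisson intervals, cover counting error only. Likeness used log2(CPM + 1), with a pseudocount of 5 as the alternative. Labels number the libraries of a group but do not name rats, so p measures the spread between these libraries. A treated and a vehicle library of equal number come from different rats, as no rat received both. Their deviations from group means correlated above 0.1 in all 3 pairs in kidney only (0.26, 0.33 and 0.38). The block did not change the call of miR-133a-3p there. The urine cisplatin label gives 1500 mg/kg, and the dose of the methods, 5 mg/kg, was used.

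The text names all 8 members, the 10 miRNAs most like miR-133a-3p and, per list, the 2 of smallest p in plasma after CCl4; miR-208b, miR-499, miR-133c and miR-1b were named after their values were seen. The members and lists were chosen with earlier results of these data known. The code was tested on simulated data. Tables used Python 3.11.15, pandas 2.3.3, NumPy 2.4.6 and SciPy 1.17.1. Sequences are from RefSeq (GRCr8); as the reads were counted on another build, no coordinate of the counts is given.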

Additional observations from a re-analysis of the deposited data

How the results depend on the processing

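No member was called after cisplatin in plasma or kidney, in liver, in urine or between vehicle groups under any alternative run, and plasma against liver gave 3 to 4 members. Of the values of single members under alternatives, 470 kept their direction and side of the threshold, 14 passed the threshold, 25 changed sign and 0 lost a call; the cause was not tested. After CCl4 the number of members called was 0, with 1 for DESeq2, 2 without the filter and 0 to 3 with 1 library left out. The 3 included miR-133a-5p, which entered the fit without corn oil library 1 through its corn oil counts. After APAP it was 0, with 1 for library totals alone and 0 to 1 with 1 library left out. Differences between responses gave 0 calls, 1 without the filter and 0 to 3 with 1 library left out, and plasma against kidney gave 3, with 5 for DESeq2 and 5 without the filter. Over all miRNAs, calls after CCl4 numbered 1, with 6 higher and 2 lower for DESeq2, 9 higher and 4 lower without the filter and 4 higher and 10 lower without corn oil library 1. After APAP equal depth left 96 miRNAs, with 16 called higher and 7 lower, and after cisplatin leaving out library 1 gave 24 higher and 9 lower in place of 4 and 5. The mean of miR-133a-3p after CCl4 was 636 CPM, and 695 by library totals.

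The replicate block changed 1 member call. miR-133a-3p after APAP had a log2 difference of -1.40 (adjusted p = 0.0413, edgeR) with the block, so that 1 member was called, although the plasma numbers did not pair the samples (correlations of deviations -0.0044, -0.24 and 0.05). With the block the log2 difference of miR-133a-3p after CCl4 was -2.12 (adjusted p = 0.117, edgeR), and 5 miRNAs in place of 1 were called higher.

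The following log2 differences changed sign. For miR-133a-3p after cisplatin they were -0.0059 with library totals, -0.24 with the column tag as a term and -0.18 to 0.50 with 1 library left out. For miR-133a-5p after APAP they were 0.019 with RLE factors, 0.18 without APAP library 1 and methylcellulose library 3, and -0.82 to 0.21 with 1 library left out. The tag term and the removal of that pair of libraries were chosen after seeing the data. For the APAP response minus the cisplatin response, miR-133a-5p gave -0.44 with library totals and -0.14 to 0.79 with 1 library left out, and miR-133b-3p gave -0.35 and -0.77 to 0.72. Between vehicle groups with 1 library left out, corn oil minus methylcellulose ran from -0.40 to 1.57 for miR-133a-5p and from -0.14 to 1.61 for miR-133a-3p, and corn oil minus saline from -0.51 to 1.47 for miR-133a-5p and from -0.016 to 1.67 for miR-133b-3p. Methylcellulose minus saline for miR-133a-5p ran from -0.43 to 0.47, and was 0.094 with DESeq2.

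Depth limits miR-1-3p and miR-206-3p in all sample types, every member in urine, and miR-133a-3p in liver, where counts of a library were 0 to 43.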
